A study of Mus musculus with 10 samples.

Results

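Amino acid transporters of the SLC3, SLC7, SLC36 and SLC38 families were followed in regenerating mouse liver with and without Ifrd1. The 9 genes are Slc36a1, Slc7a1, Slc7a2, Slc7a5, Slc38a2, Slc38a3, Slc38a4, Slc3a1 and Slc3a2, found by symbol among 23056 genes of the count table. All 9 had a row, and all 9 were among the 13688 genes that passed the filter on low counts. Liver RNA was sequenced in 4 libraries labelled Ifrd1 knockout (KO) and 6 labelled wild type (WT), and the labels do not say that each is from a separate mouse. All 10 samples were taken 12 hours after partial hepatectomy, in which the left lateral and median lobes were removed under isoflurane. No strain, sex, age or cell type of the deletion is given in the labels, and no unoperated liver was analysed here. Ifrd1 encodes a transcriptional co-regulator, and the stated purpose was to learn what it does during regeneration.

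Amino acid transporters set how much of each amino acid a hepatocyte takes up from portal blood, exchanges or recovers from its lysosomes. The SLC38 proteins carry glutamine, alanine and other small neutral amino acids with sodium, and dominate neutral amino acid uptake in liver. The SLC7 proteins comprise cationic amino acid carriers and light chains that work only when bound to a single-pass heavy chain of the SLC3 family. SLC36A1 moves glycine, alanine and proline with protons across the lysosomal and plasma membranes. Amino acids leaving the lysosome are sensed by mTORC1, the kinase complex that drives cell growth, and amino acid shortage raises several of these transporters through the transcription factor ATF4.

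Values are in CPM, the read count of a gene scaled to the size of its library, which was adjusted for composition. Log2 fold changes (KO over WT) come from edgeR's quasi-likelihood model, in which a gene was called at a Benjamini-Hochberg adjusted p under 0.05 over 13688 genes. Their standard errors (SE) were derived from that model, as the size of the log2 fold change divided by the square root of its F statistic. Every adjusted p for a gene is from that model unless another tool is named, and is written as edgeR's adjusted p. Library totals lay between 12675838 and 17098012 counts in KO and between 12307446 and 14340623 in WT. The targeted gene, Ifrd1, was at 13.0, 22.6, 20.8 and 21.6 CPM in the KO libraries, against 40.2 to 81.7 CPM in the WT libraries, and it fell in KO (log2 fold change -1.59, SE 0.23, edgeR's adjusted p = 0.0258). That call was lost without any 1 KO library and without WT replicate 1 or 5 (edgeR's adjusted p 0.0521 to 0.132), with log2 fold changes of -1.68 to -1.44 over the libraries left out. Hepatocyte markers were abundant in each library, with 53648 to 63198 CPM in KO and 41094 to 88765 CPM in WT for a list of 10. Kupffer cell markers (10 genes) summed to 47.8 to 92.6 CPM in KO and 62.5 to 385 CPM in WT, and cholangiocyte markers (8 genes) to 43.3 to 66.2 CPM in KO and 32.8 to 283 CPM in WT. WT replicate 2 had the most Kupffer, neutrophil and monocyte, and lymphocyte marker RNA, and WT replicate 1 the most cholangiocyte marker RNA, 247 CPM of it from Spp1. For 6 of the 9 transporters, the level in WT replicate 4 was nearer to that of the KO libraries than to that of the remaining WT libraries, as it was for 69.7% of all tested genes. In whole liver, fewer cells of a type and less RNA per cell cannot be told apart.

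The 9 transporters were chosen by their levels in these same KO and WT libraries, so their differences between genotypes are given as a description without a test, and nothing is read from counts over them. Of the 9, 1 was called (Slc36a1, higher in KO), where 1.33% of 13688 tested genes were, 0.563% higher and 0.767% lower. DESeq2 called 5 of the 9, where it called 11.8% of all genes, and limma-voom 1, where it called 2.32%. Without WT replicate 4, edgeR called 5 of the 9, where it called 21.4% of all genes. Slc7a1, Slc7a2, Slc7a5 and Slc3a2 were each called in 2 of 18 alternatives. The groups did not overlap in 2 of the 9 (Slc36a1 and Slc3a2), against 6.90% of all tested genes, 3.61% higher and 3.29% lower in KO. The call of Slc36a1 was kept in 11 of 18 alternatives and lost in 7, among them without KO replicate 1, 2 or 3, without WT replicate 1 or 5, and without WT replicates 1 and 2 together. Fold changes were below 0 for 7 of the 9, with a median log2 fold change of -0.61 and a range of -2.37 to 1.68. The median over all tested genes was -0.02.

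Promoter windows from RefSeq (GRCm38.p6), 250 bases before to 50 after the start, were held for 6 of the 9 genes and not for Slc38a3, Slc7a2 or Slc7a5. Motifs were searched on both strands: CACGTG, the E-box at the core of elements bound by TFEB and by MYC, TGANTCA, the AP-1 element, and TGATGNAA, the core of the element through which ATF4 acts. The E-box was present in 7.15% of 32817 mouse promoter windows, the AP-1 element in 7.81% and the ATF4 element in 3.97%. Slc36a1 held the E-box at 2 places, which 0.594% of all windows do. One begins 31 bases before the RefSeq start and the other begins 3 bases before that start and spans it. Slc7a1 and Slc3a1 each held 1 AP-1 element, beginning 123 and 140 bases before the start (for Slc7a1, the first of 2 listed starts). A match is a description of the sequence, not of binding. No motif of the 3 was in the windows of Slc38a2, Slc38a4 or Slc3a2, and the ATF4 element was in no window of the 6 genes, which says only that these letters are not within these bases. The windows with a match are shown 5′ to 3′ on the strand of the gene, with the motif in capitals. That of Slc36a1 lies at chr11:55204090-55204389 (plus strand), that of Slc7a1 at chr5:148399855-148400154 (minus strand) and that of Slc3a1 at chr17:85028097-85028396 (plus strand).
Slc36a1: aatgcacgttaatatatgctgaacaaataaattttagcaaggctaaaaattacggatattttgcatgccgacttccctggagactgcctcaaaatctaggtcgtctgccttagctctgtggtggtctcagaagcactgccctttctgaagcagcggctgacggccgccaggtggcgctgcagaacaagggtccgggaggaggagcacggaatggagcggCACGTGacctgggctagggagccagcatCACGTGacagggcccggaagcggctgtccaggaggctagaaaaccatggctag
Slc7a1: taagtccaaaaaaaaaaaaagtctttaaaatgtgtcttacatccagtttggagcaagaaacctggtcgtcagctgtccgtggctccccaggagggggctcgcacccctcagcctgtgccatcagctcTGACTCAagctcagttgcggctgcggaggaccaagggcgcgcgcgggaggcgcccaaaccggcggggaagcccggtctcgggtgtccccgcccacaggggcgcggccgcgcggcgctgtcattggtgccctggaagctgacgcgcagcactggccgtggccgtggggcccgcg
Slc3a1: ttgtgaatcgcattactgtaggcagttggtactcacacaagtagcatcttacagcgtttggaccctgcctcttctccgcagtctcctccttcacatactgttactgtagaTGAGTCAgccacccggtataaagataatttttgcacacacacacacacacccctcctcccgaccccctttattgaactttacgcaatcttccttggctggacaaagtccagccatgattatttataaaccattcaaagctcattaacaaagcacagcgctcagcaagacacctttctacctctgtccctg

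Slc36a1, a proton-coupled carrier, was the member furthest above its WT level in KO libraries. Its gene (ENSMUSG00000020261.15) lies on chromosome 11 from 55204350 to 55236330 on the plus strand of GRCm38. That start is from GENCODE and differs from the RefSeq start of its promoter window. It was at 30.7, 26.1, 36.2 and 19.96 CPM in KO replicates 1 to 4, against 8.20, 9.15, 7.03, 7.55, 6.91 and 13.99 CPM in WT replicates 1 to 6. The lowest KO library stood above the highest WT library, and WT replicate 6 stood above the other WT libraries. The means were 28.2 ± 6.88 CPM in KO (SD, n = 4) and 8.81 ± 2.67 CPM in WT (SD, n = 6), a log2 fold change of 1.68 (SE 0.23), or 3.20-fold higher in KO. Read counts were 321 to 556 in KO and 80 to 181 in WT. WT replicate 4 was among the other WT libraries here, and the log2 fold change was 1.64 without that library and 1.67 without WT replicates 1 and 2.

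**Figure D1:**
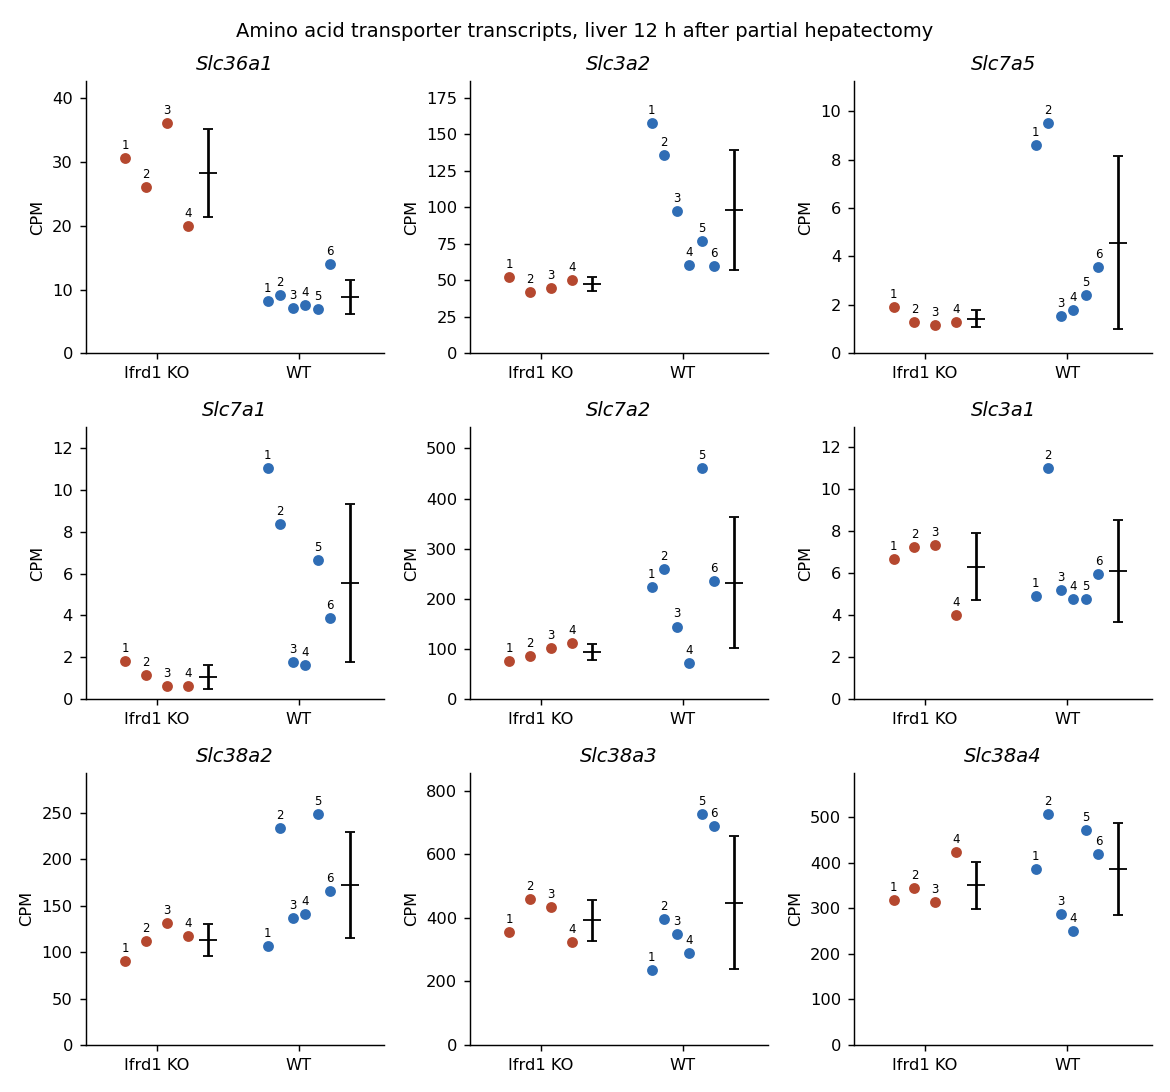
CPM of each of the 9 transporters in every library (y axis, linear from 0, a separate scale per gene), with KO libraries in red and WT libraries in blue. Small digits are replicate numbers, and black bars are the mean and SD of 4 KO and 6 WT libraries. Slc36a1 is higher and Slc3a2 lower in each KO library than in any WT library, while the other 7 genes overlap.

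Slc36a4, another member of the SLC36 family, was at 6.90 ± 0.72 CPM in KO and 10.7 ± 3.73 CPM in WT and did not pass (edgeR's adjusted p = 0.153). Per length of exon (RPKM, CPM divided by kilobases), the ratio of Slc36a1 to Slc36a4, a ratio chosen after the values were seen, was 2.92 to 6.29 in KO libraries and 0.567 to 1.72 in WT libraries. Slc38a9, the lysosomal arginine sensor of mTORC1, was at 15.3 ± 3.03 CPM in KO and 12.7 ± 3.40 CPM in WT and did not pass either (edgeR's adjusted p = 0.435). Genes around Slc36a1 were read after its value was known. Of 13 genes with a row within 500 kb on either side, 11 were tested and 0 were called by edgeR, with 4 at an unadjusted p under 0.05, which 26.0% of all tested genes reached. DESeq2 called 2 of the 11 and limma-voom 0, where they called 11.8% and 2.32% of all genes. Their log2 fold changes lay between -0.87 and 0.46, all below that of Slc36a1.

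The genes whose profile over the 10 libraries was most like that of Slc36a1 were BC024139, Fcgr2b, Atad5, Lrp4 and Akr1c14. Likeness was the root mean square difference in log2 CPM after each gene was centred on its own mean, over 11571 genes with a name and at least 1 CPM. It was 0.36 for BC024139, 0.43 for Fcgr2b, 0.44 for Atad5, 0.46 for Lrp4 and 0.46 for Akr1c14, where the median gene had 0.95. Fcgr2b, the inhibitory Fc receptor carried by sinusoidal endothelium and macrophages, was at 19.96 to 35.5 CPM in KO and at 10.05 to 16.4 CPM in WT. Lrp4, a member of the LDL receptor family, was at 13.8 to 15.8 CPM in KO and 3.82 to 8.44 CPM in WT. BC024139 was at 7.34 to 11.8 CPM in KO and 2.91 to 5.41 CPM in WT. Atad5, at 2.67 to 4.69 CPM in KO and 0.832 to 2.86 CPM in WT, overlapped and did not pass (edgeR's adjusted p = 0.0875). Akr1c14, a hydroxysteroid dehydrogenase, was at 43.3 to 51.7 CPM in KO and 10.3 to 32.9 CPM in WT. Among the other 8 transporters the closest was Slc3a1, at 0.86. These genes were picked by likeness to a gene chosen on the same libraries, so their levels are a description. The promoter windows held for Fcgr2b, Atad5 and Akr1c14 had none of the 3 motifs searched.

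Slc3a2 encodes the CD98 heavy chain, without which the light chains LAT1, y+LAT and xCT do not reach the cell surface. The gene lies on chromosome 19 from 8706882 to 8723369 on the minus strand. It was at 52.3, 41.9, 44.4 and 50.4 CPM in KO libraries, against 158, 136, 97.8, 60.6, 76.9 and 59.9 CPM in WT replicates 1 to 6. The KO libraries were tight and lay below each WT library, while WT replicates 4 and 6 were the nearest to them. Means were 47.3 ± 4.90 CPM in KO and 98.2 ± 40.9 CPM in WT (log2 fold change -1.05, SE 0.28). Without WT replicates 1 and 2, its highest libraries, the log2 fold change was -0.64.

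Slc7a5 encodes LAT1, the light chain that exchanges glutamine for leucine and other large neutral amino acids and that is low in quiescent hepatocytes. The gene lies on chromosome 8 from 121881150 to 121907694 on the minus strand. It had 1.93, 1.31, 1.15 and 1.31 CPM in KO libraries, against 8.59, 9.53, 1.53, 1.77, 2.42 and 3.56 CPM in WT replicates 1 to 6. WT replicates 1 and 2 were far above the rest, and WT replicates 3 and 4 lay within the KO range. The log2 fold change was -1.67 (SE 0.55) over all libraries and -0.69 without WT replicates 1 and 2. Slc7a5 had 15 to 35 reads per KO library, few enough for counting error to blur differences among KO libraries.

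Other light chains of the CD98 heavy chain were read beside them. Slc7a6 (y+LAT2) was at 2.55 ± 1.08 CPM in KO and 9.63 ± 6.56 CPM in WT, highest in WT replicate 2 at 20.04 CPM, and did not pass (edgeR's adjusted p = 0.0750). Slc7a11 (xCT, the cystine importer) had 2, 0, 0 and 0 reads in KO libraries, against 281, 52, 1, 5, 157 and 55 in WT replicates 1 to 6. WT replicates 3 and 4 were thus near the KO level, and the gene did not pass (edgeR's adjusted p = 0.0557). Slc7a7 (y+LAT1) and Slc7a8 (LAT2) had nearly equal means, with 3.51 ± 1.25 CPM in KO and 3.61 ± 0.84 CPM in WT for Slc7a7, and 2.13 ± 0.71 CPM in KO and 2.37 ± 0.64 CPM in WT for Slc7a8. Summed per length, 6 light chains (Slc7a5, Slc7a6, Slc7a7, Slc7a8, Slc7a10 and Slc7a11) reached 1.88 to 2.97 RPKM in KO and 3.18 to 9.08 RPKM in WT, which do not overlap. The ratio of heavy chain to summed light chains was 5.68 ± 1.42 in KO and 5.36 ± 1.33 in WT, with overlapping ranges of 4.24 to 7.60 in KO and 3.90 to 7.65 in WT. These sums and ratios were also chosen after the values were seen.

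Slc7a1 and Slc7a2 encode CAT1 and CAT2, carriers of arginine, lysine and ornithine. CAT2 is the cationic carrier of hepatocytes, while CAT1 is known as nearly silent in resting liver. Slc7a1 (chromosome 5, 148327410 to 148399904, minus strand) was at 1.82, 1.16, 0.615 and 0.622 CPM in KO, against 11.0, 8.39, 1.76, 1.63, 6.65 and 3.87 CPM in WT replicates 1 to 6. Its KO level rests on 8 to 33 reads per library, and WT replicates 3 and 4 lay within the KO range. It had the lowest log2 fold change of the 9, at -2.37 (SE 0.60), and -1.69 without WT replicates 1 and 2.

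Slc7a2 (chromosome 8, 40862396 to 40922308, plus strand) was at 75.2, 86.4, 102 and 112 CPM in KO, against 223, 260, 145, 71.6, 460 and 235 CPM in WT replicates 1 to 6. WT replicate 4 was below each KO library, and the other WT libraries were above them all. Its log2 fold change was -1.31 (SE 0.40), -1.49 without WT replicate 4 and -0.99 without WT replicate 5, its highest library. Per length, Slc7a2 exceeded Slc7a1 by 52.2 to 227 times in KO libraries and by 25.5 to 104 times in WT libraries. The lowest ratio was that of WT replicate 1, the library with the most Slc7a1. An antisense noncoding gene, Gm26584, overlaps 635 bases of the exons of Slc7a2, and the strand setting of the counting is not given.

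Slc3a1 encodes rBAT, the heavy chain of the cystine and dibasic amino acid exchanger of kidney and gut, whose loss causes cystinuria. The gene lies on chromosome 17 from 85028376 to 85064236 on the plus strand. It was at 6.67, 7.24, 7.30 and 3.98 CPM in KO, against 4.89, 11.0, 5.20, 4.76, 4.75 and 5.95 CPM in WT. KO and WT overlapped, with the highest value in WT replicate 2 and the lowest in KO replicate 4, and the log2 fold change was 0.05 (SE 0.28). The log2 fold change ranged from -0.03 without KO replicate 3 to 0.30 without WT replicate 2, so its sign depends on single libraries. The gene overlaps Prepl on the opposite strand over 601 exon bases, so reads of the neighbours may have been shared. Its light chain partner Slc7a9 had no row in the count table under that symbol.

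The SLC38 carriers are the sodium-coupled members of the group. Slc38a4 encodes SNAT4, a sodium-coupled carrier of alanine and other small neutral amino acids found mainly in hepatocytes. It was at 318, 344, 314 and 424 CPM in KO, against 385, 507, 288, 250.2, 472 and 420.1 CPM in WT, overlapping throughout (log2 fold change -0.14, SE 0.21). Slc38a3, the SNAT3 glutamine and histidine carrier (chromosome 9, 107650634 to 107669530, minus strand), was at 354, 458, 434 and 322 CPM in KO, against 234, 397, 350.0, 289, 726 and 689 CPM in WT. WT replicates 5 and 6 were the high ones here, and the KO libraries lay in the middle of the WT range (log2 fold change -0.19, SE 0.31).

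Slc38a2 encodes SNAT2, the adaptive system A carrier that cells raise when amino acids are short or growth factors act. It was at 90.5, 112, 131 and 117 CPM in KO, against 106, 234, 136, 141, 249 and 166 CPM in WT replicates 1 to 6. WT replicate 1 lay within the KO range and the other WT libraries above it (log2 fold change -0.61, SE 0.24). Slc38a2 and Slc38a4 are near neighbours on chromosome 15 (96687392 to 96699730 and 96994820 to 97055956, both on the minus strand). Per length, Slc38a4 exceeded Slc38a2 by 6.53 ± 1.16 times in KO and 4.88 ± 1.40 times in WT.

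Levels were set side by side between genes per length, in RPKM, within each genotype. The genes and their order come from these same values, so the order is a description. It also depends on the length used, here the union of exons. With the longest transcript as length, Slc38a3 stood above Slc38a4, Slc38a2 above Slc7a2 and Slc36a1 above Slc3a1 over all libraries. Slc36a1 was also above Slc3a1 when WT replicate 2, 3 or 5 was left out. Slc38a4 and Slc38a3 led, with 82.2 ± 12.0 and 74.3 ± 12.2 RPKM in KO and 90.8 ± 23.7 and 84.8 ± 39.6 RPKM in WT. Slc38a4 was the higher of the pair in 2 of 4 KO libraries and 4 of 6 WT libraries, so these neighbours overlapped.

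Slc3a2, Slc7a2 and Slc38a2 came next. Slc3a2 was at 13.4 ± 1.39 RPKM in KO and 27.8 ± 11.6 RPKM in WT. Slc7a2 was at 10.3 ± 1.78 RPKM in KO and 25.4 ± 14.4 RPKM in WT. Slc38a2, at 12.8 ± 1.93 RPKM in KO and 19.5 ± 6.46 RPKM in WT, stood above Slc7a2 in each of the 4 KO libraries but below it in 5 of 6 WT libraries.

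Slc36a1 and Slc3a1 changed places between the genotypes at these lengths. Slc36a1 was at 5.02 ± 1.22 RPKM in KO and 1.57 ± 0.48 RPKM in WT. Slc3a1 was at 2.77 ± 0.69 RPKM in KO and 2.68 ± 1.07 RPKM in WT, below Slc36a1 in 4 of 4 KO libraries and above it in 6 of 6 WT libraries. Slc7a5 was at 0.384 ± 0.093 RPKM in KO and 1.23 ± 0.96 RPKM in WT, below Slc36a1 in 4 of 4 KO and 4 of 6 WT libraries, the exceptions being WT replicates 1 and 2. Slc7a1 was lowest in each library, at 0.091 ± 0.050 RPKM in KO and 0.482 ± 0.329 RPKM in WT. The 3 SLC38 genes made up 84.1% ± 1.41 of the summed RPKM of the 9 in KO and 76.5% ± 6.28 in WT. Slc36a1 made up 2.51% of that sum in KO and 0.645% in WT, on average over libraries.

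**Figure D2:**
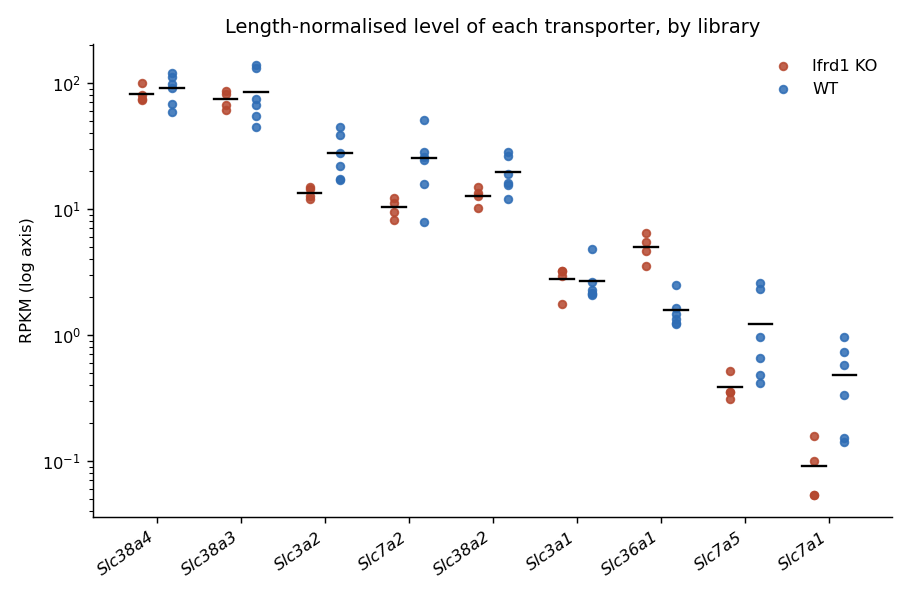
RPKM of the 9 transporters (log axis) in each of 4 KO (red) and 6 WT (blue) libraries, ordered by mean log2 level over all libraries. Black lines are group means. Slc38a4 and Slc38a3 lead near 80 RPKM and Slc7a1 is last, below 1 RPKM in each library.

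The coefficient of variation was higher among WT than among KO libraries in each of the 9 genes, as it was in 80.4% of all tested genes. It was 26.1% to 78.1% in WT and 10.4% to 54.2% in KO. The uneven WT libraries followed more than 1 pattern. Slc3a2, Slc7a5 and Slc7a1, 3 of the 9, were highest in WT replicates 1 and 2, as were 13.8% of all tested genes. Of 22 tested genes of the amino acid response, 10 were highest in the same libraries. One of the 10 was Trib3, a target of ATF4, at 16.3 and 12.9 CPM against 2.31 to 3.48 CPM in KO and 1.64 to 4.02 CPM in WT replicates 3 to 6. Asns, another target of ATF4, was instead highest in WT replicate 6, at 36.6 CPM. Slc7a2, Slc38a2 and Slc38a3 were highest in WT replicate 5. Atf4 itself was at 155 to 197 CPM in KO and 175 to 374 CPM in WT, and Ddit3 (CHOP) at 17.8 to 24.9 CPM in KO and 17.7 to 35.01 CPM in WT. As given above, WT replicate 2 had the most myeloid and lymphocyte marker RNA and WT replicate 1 the most Spp1. Their part in the transporter values was not tested.

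**Figure D3:**
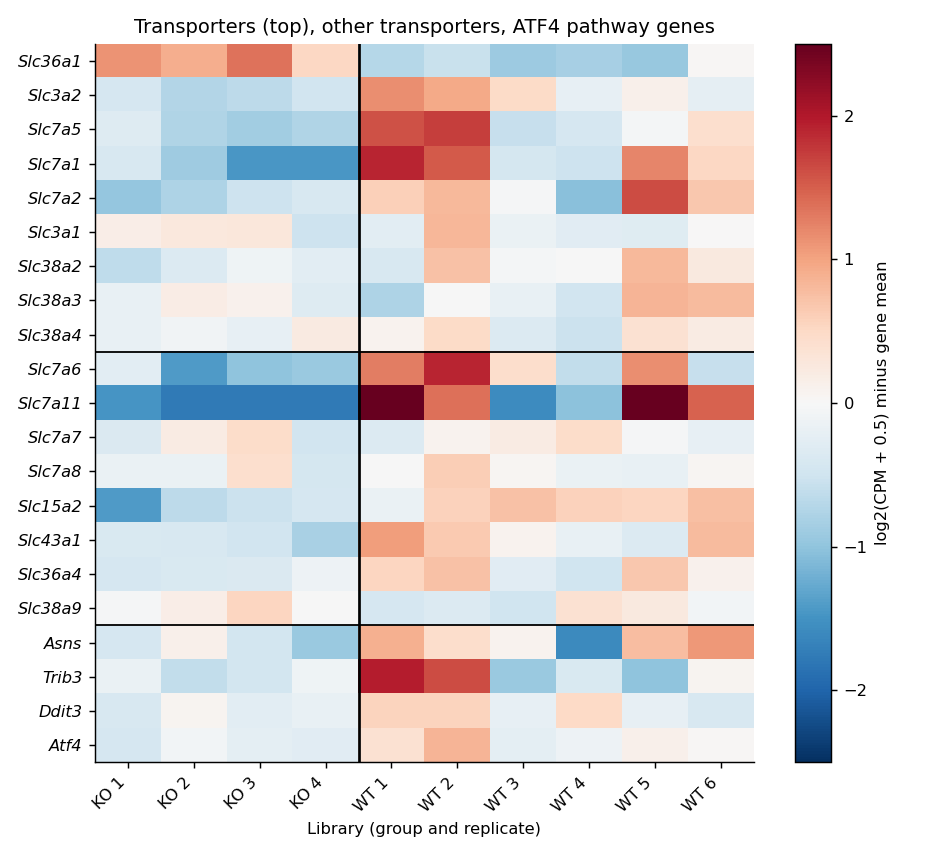
Heat map of log2(CPM + 0.5) minus the mean of each gene (colour, red above and blue below the mean) for 4 KO and 6 WT libraries (columns). Rows above the upper line are the 9 transporters, rows between the lines other transporters, and rows below 4 genes of the ATF4 pathway. Slc36a1 alone among the 9 is above its mean in each KO library, and the deepest red cells of Slc3a2, Slc7a5 and Slc7a1 sit in WT replicates 1 and 2.

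Other amino acid transporters were taken from a list of 63 genes, of which 49 had a row and 34 could be tested. Slc15a2, a carrier of dipeptides and tripeptides known from kidney and brain, fell, and no gene of the list rose. That is 1 lower and 0 higher of 34, against 1.33% of all genes called, with 13 lower and 2 higher at an unadjusted p under 0.05, where 26.0% of all tested genes reached it. DESeq2 called 9 lower and 0 higher of the list, and 11.8% of all genes. The median log2 fold change of the list was -0.23, against -0.02 over all genes.

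Slc15a2 was at 4.52, 8.01, 8.76 and 9.52 CPM in KO, against 11.5, 19.6, 21.8, 19.4, 18.8 and 22.03 CPM in WT replicates 1 to 6. The groups did not overlap, and the nearest WT library was WT replicate 1. The log2 fold change was -1.29 (SE 0.24, edgeR's adjusted p = 0.0437). WT replicate 4 was not near the KO level here. The call held without WT replicate 4 (edgeR's adjusted p = 0.00496) and was lost without any other single library (edgeR's adjusted p 0.0521 to 0.146), while the log2 fold change stayed between -1.41 and -1.10.

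By place in the cell, the call was among 20 tested carriers of the plasma membrane. Slc43a1 (LAT3), a facilitated carrier of leucine and its kin, did not overlap between the groups, with 1.74 to 2.48 CPM in KO and 2.59 to 7.60 CPM in WT, but did not pass (edgeR's adjusted p = 0.0857). Slc1a5 (ASCT2), the glutamine exchanger of growing cells, was at 10.4 ± 1.40 CPM in KO and 7.62 ± 1.44 CPM in WT (edgeR's adjusted p = 0.151). Its relative Slc1a4 was at 3.87 ± 1.03 CPM in KO and 3.43 ± 2.51 CPM in WT, and Slc38a1 (SNAT1) at 0.445 ± 0.156 CPM in KO and 1.07 ± 0.80 CPM in WT. Neither was called. Median log2 fold changes were -0.11 for the plasma membrane genes, -0.31 for 7 lysosomal and -0.33 for 7 mitochondrial carriers.

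**Figure D4:**
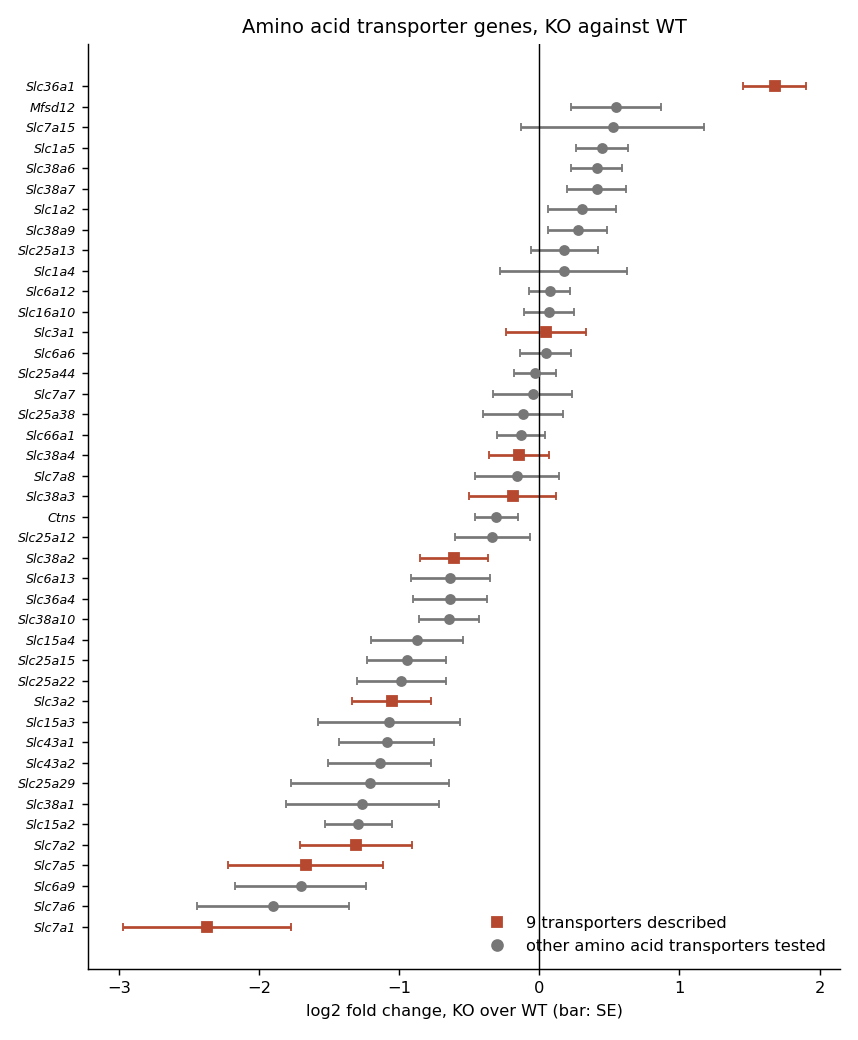
Log2 fold change of KO over WT (x axis) with its SE for the 9 transporters (red squares) and 33 other tested amino acid transporters (grey circles), sorted by value. Slc7a11, at 2 reads in all KO libraries together, is left out because its fold change has no stable value. Slc36a1 stands at 1.68, where the next gene is at 0.55, and Slc7a1 has the lowest value at -2.37.

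Genes through which amino acids act on growth and on ATF4 were counted in the same fit. Of 34 tested genes of mTORC1 and its lysosomal nutrient sensing, 1 fell and 0 rose, with 6 lower and 2 higher before adjustment (p under 0.05 by edgeR), beside 1.33% called and 26.0% before adjustment over all genes, so the counts are near the background. The one that fell was Sesn2, a leucine sensor and itself a target of ATF4, at 2.65 to 4.85 CPM in KO and 6.46 to 27.6 CPM in WT (log2 fold change -2.06, SE 0.41, edgeR's adjusted p = 0.0440). Mtor was at 34.2 ± 4.09 CPM in KO and 36.1 ± 5.25 CPM in WT. Tfeb, which drives lysosomal genes through the E-box, was at 7.78 to 8.96 CPM in KO and 2.12 to 8.87 CPM in WT and did not pass (edgeR's adjusted p = 0.263).

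Of 22 tested genes of the amino acid response, 1 fell and 0 rose, with 12 lower and 3 higher before adjustment (p under 0.05 by edgeR), beside the same 1.33% and 26.0% over all genes. Psat1, a serine synthesis enzyme, was the one that fell (1.82 ± 0.28 CPM in KO and 36.6 ± 28.0 CPM in WT, edgeR's adjusted p = 0.0440). WT replicate 4, at 1.90 CPM, lay within its KO range. Asns, asparagine synthetase, was at 13.0 ± 4.12 CPM in KO and 24.0 ± 11.3 CPM in WT and did not pass (edgeR's adjusted p = 0.206). The 3 higher before adjustment were Atf5, Gpt2 and Cebpg, with log2 fold changes of 1.14, 0.71 and 0.57. None of them was called (edgeR's adjusted p 0.104 to 0.125). The calls of Sesn2 and Psat1 were each lost without any single library other than WT replicate 4 (edgeR's adjusted p 0.0552 to 0.148 for Sesn2 and 0.0593 to 0.148 for Psat1). Their log2 fold changes stayed between -2.22 and -1.84 for Sesn2 and between -4.57 and -3.94 for Psat1. Limma-voom did not call either (limma's adjusted p = 0.0523 for Sesn2 and 0.113 for Psat1).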

How the data were processed

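Liver RNA was sequenced in 10 libraries (4 KO, 6 WT), and the authors deposited raw read counts per gene in 1 table of 23056 genes, of which 22 had no count. The submitters' processing notes name STAR, HTSeq, DESeq2 and the mm10 build; their versions, the annotation and whether strand was used were not given in the sources used here. No per-sample column was left out (0 not used). Library totals are given with the results.

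Counts were filtered with filterByExpr (13688 genes kept, 99.8% of counts), scaled by TMM and tested with edgeR 4.0.16, genotype being the sole term. DESeq2 1.42.0, limma-voom 3.58.1, other scalings and filters, a replicate block and leaving out libraries were alternatives. The block gave each replicate number its own term, so WT replicates 5 and 6, without a KO partner, did not enter its fold changes. The test was tried on simulated data. Log2 CPM used a prior count of 2. RPKM divides CPM by exon-union length (GENCODE M21 on GRCm38, the assembly of mm10; 22277 symbols, 96.6%, matched), and log2 RPKM a pseudocount of 0.5.

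The members and lists were chosen with earlier results of these data known. Genes named are the 9 members, Ifrd1, called genes of each list, a set panel, and the 5 genes nearest to Slc36a1. The replicates of a group differed beyond sampling noise in every pair. The labels do not say that each library is a separate animal's. The p-values thus judge the difference between genotypes against the spread between libraries, and may be too small if libraries share an animal.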

Additional observations from a re-analysis of the deposited data

Results flagged for a closer look

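Of 40 groups of libraries looked at, 7 had 1 library far from the others. The rule marks about 1 in 20 groups that are independent and normally distributed. These groups share libraries and were read on untransformed CPM, so that rate cannot be set against the 7. Among the 9 transporters, Slc36a1 was at 13.99 CPM in WT replicate 6, against 6.91 to 9.15 CPM in the other WT libraries, and Slc3a1 was at 10.96 CPM in WT replicate 2, against 4.75 to 5.95 CPM. Among other transporters, Slc15a2 was lowest in WT replicate 1 at 11.5 CPM, against 18.8 to 22.03 CPM. WT replicate 2 was highest for Slc7a8, at 3.63 CPM against 1.90 to 2.32 CPM, and for Slc38a1, at 2.65 CPM against 0.382 to 0.953 CPM. Slc1a4 was at 8.18 CPM in WT replicate 3, against 1.06 to 3.56 CPM. Slc7a11 was at 0.110 CPM in KO replicate 1 and at 0 in the other KO libraries, a difference of 2 reads.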

How the results depend on the processing

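Over all genes edgeR called 182 (77 higher, 105 lower). DESeq2 called 1618 (579 higher, 1039 lower), limma-voom 318 (231 higher, 87 lower), upper-quartile scaling 153 (78 higher, 75 lower) and the fit with a replicate block 1 (lower). Leaving out 1 library gave 0 to 2893 calls, the highest without WT replicate 4, and 2681 to 2740 genes had an unadjusted p under 0.05 in the fits where the count was 0. Without WT replicates 1 and 2 together, an alternative chosen after seeing the data, 4 were called.

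Other transporters had 1 call, against 9 with DESeq2, 0 to 14 without 1 library (14 without WT replicate 4) and 0 without WT replicates 1 and 2 (13 unadjusted). The replicate block also called 1, Slc7a11 in place of Slc15a2. The mTORC1 list had 1 call, against 2 with DESeq2, 0 with limma-voom (8 unadjusted), 0 with the block (4 unadjusted), 0 to 5 without 1 library and 0 without WT replicates 1 and 2 (3 unadjusted). The amino acid response list had 1 call, against 11 with DESeq2 (1 higher, 10 lower), 0 without a filter (16 unadjusted) and 0 with limma-voom (13 unadjusted). It had 0 with the block (12 unadjusted), 0 to 14 without 1 library and 0 without WT replicates 1 and 2 (10 unadjusted). Other scalings kept each list at 1 call. The causes were not tested.

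Deviations of same-numbered KO and WT libraries from their group means had correlations of 0.18, 0.07, -0.03 and -0.02. KO replicates 1 and 2 matched their own number best, and KO replicates 3 and 4 did not. These values cannot tell whether same-numbered libraries share more than a number. Slc36a1 kept a log2 fold change of 1.54 to 1.86 over 18 alternatives. The block lost its call and that of Ifrd1 (edgeR's adjusted p = 0.124). It turned Slc38a3 to 0.32 and Slc38a4 to 0.01 and put Slc7a2 at -0.77. No KO library is numbered 5 or 6, so these fold changes set KO against WT replicates 1 to 4. They thus leave out WT replicates 5 and 6, the highest for Slc38a3. Slc7a5 was at -0.69 without WT replicates 1 and 2. A sign-flip permutation test of neighbours in the order of levels is not used above, because the neighbours were picked from the same values. In it 4 of 8 pairs passed, 0 with the 6 WT libraries alone and 3 to 4 without 1 library. The 0 says little, since with 6 libraries the smallest p this sign-flip test can give is 0.031 before adjustment. The order in WT alone was the same as over all libraries. Slc7a1 and Slc7a5 in KO are limited by depth.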
